A study of Mus musculus with 2 samples.

Results

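The genes described here are those of fatty acid synthesis from acetyl-CoA, taken by gene symbol from the deposited expression values of LPC-HRas, a cell line from mouse liver tumour that the labels call hepatocellular carcinoma cells. They are Acly, Acss2, Me1, Acaca, Fasn, Elovl6, Scd1, Scd2 and Srebf1, 9 of the 55487 named gene records, each with 1 record in the files. The shETV4 library came from LPC-HRas cells infected with lentivirus carrying a hairpin against the ETS transcription factor gene Etv4, and the control, shRFP, came from the same cells infected with lentivirus carrying a hairpin against red fluorescent protein. Each group had 1 library, so the differences have no replicate check, none was tested, and every statement describes these 2 libraries of 1 cell line. Values are TPM, transcript abundances that are scaled to transcript length and to the total of a library and keep no record of depth, so the counting error behind each value is unknown.

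Fatty acid synthesis builds palmitate in the cytosol from acetyl-CoA and NADPH. Citrate leaves the mitochondrion and is cleaved to acetyl-CoA, which is carboxylated to malonyl-CoA and condensed by a large multifunctional synthase, after which elongases and desaturases turn palmitate into longer and unsaturated acids. The transcription factor SREBP-1 drives most of these genes, the liver is a main site of the pathway, and many tumours run it at a high rate.

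Acly, Scd2 and Elovl6 were lower in the shETV4 library by more than 2-fold. The other enzyme genes ranged from lower by less than 2-fold to level, and Srebf1, the gene of their main activator, was not lower. Of the 3, Acly alone stayed past 2-fold after adjustment for the GC content of the transcripts. In the deposited values the sizes of these differences varied from gene to gene. Acly acts in the supply of acetyl-CoA from citrate, and Scd2 and Elovl6 act in desaturation and elongation. Other genes of those steps were not called, among them Scd1 and the citrate carrier gene Slc25a1, at log2 differences of -0.52 and -0.22. A pattern by place in the pathway was not tested. Fasn, the synthase between those steps, was at 0.93 times its control level in TPM. After adjustment for GC content the log2 difference of Fasn was -0.28, near that of Acaca at -0.29. Folds beside TPM values are plain ratios. Each difference is the log2(TPM + 1) of the shETV4 library less that of the shRFP library, so differences of weakly expressed genes are understated. A gene was called lower or higher at a difference of -1 or 1, provided that either library reached 1 TPM. By that rule 3 of the 9 genes were called lower and 0 higher. Of all 12968 genes evaluated, 7.06% were called lower and 3.39% higher. The median difference of the 9 genes was -0.45, against -0.10 over all genes evaluated, and 7 of the 9 lay below 0, as did 58.3% of all genes evaluated.

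The bases before the start sites of 3 of the genes are shown: Acly and Elovl6 were called lower and Fasn was near level on the deposited scale. Scd2, the other gene called lower, and Scd1 had no entry among the RefSeq promoters used, so neither could be shown or searched for motifs. Each line gives the 150 bases before the RefSeq start site on GRCm38.p6, 5′ to 3′ on the strand of the gene. Acly is shown from chr11:100528001-100528150 on the minus strand, Elovl6 from chr3:129532236-129532385 on the plus strand and Fasn from chr11:120824548-120824697 on the minus strand. Capitals mark matches, on either strand, to any of the 5 motifs named after the lines.
Acly: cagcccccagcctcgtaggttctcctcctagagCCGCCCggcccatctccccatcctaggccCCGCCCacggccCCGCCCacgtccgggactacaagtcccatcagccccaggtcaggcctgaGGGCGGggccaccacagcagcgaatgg
Elovl6: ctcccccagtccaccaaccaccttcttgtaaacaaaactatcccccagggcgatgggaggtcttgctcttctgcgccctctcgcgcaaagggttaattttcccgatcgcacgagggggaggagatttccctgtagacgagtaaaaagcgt
Fasn: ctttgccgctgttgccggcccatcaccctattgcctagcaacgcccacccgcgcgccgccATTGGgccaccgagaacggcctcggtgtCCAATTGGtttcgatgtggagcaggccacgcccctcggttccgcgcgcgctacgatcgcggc
The motifs were searched on both strands of the 250 bases before each start site, in 10 promoters of the 7 genes with an entry in the RefSeq table. The same search covered all 32851 promoters of that table. The only Acaca window, chr11:84195188-84195437, lies inside the gene as mapped below, so bases before the outermost start of Acaca were not searched. The windows of start site 2 of Me1 and of start sites 2 and 3 of Srebf1 also lie inside their genes. Those of Acss2, Elovl6 and start site 1 of Me1 lie partly inside the genes as mapped below. The Elovl6 line shown likewise runs into the mapped gene. The E-box CACGTG, to which USF factors and SREBP-1 can bind, was found in none of the 10 promoters and in 6.02% of all promoters. The sterol element TCACNNCAC, a core of the sites through which SREBPs act, was also found in none of the 10, and in 3.11% of all. The Sp1 box GGGCGG was found in 5 of the 10 promoters, of Acly, Acss2, Me1 and Srebf1, and in 32.7% of all promoters; the Acly window held 4 copies. The CCAAT box, the site of NF-Y, was found in 5 of the 10, of Acss2, Fasn, Me1 and Srebf1, and in 33.8% of all promoters, with a pair of overlapping copies on opposite strands in Fasn. The ETS core CCGGAA was found in 2 of the 10, of Acss2 and Srebf1, and in 12.0% of all promoters. The Elovl6 window held none of the 5. These are matches of letters in a short window and say nothing of binding.

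Acly encodes ATP citrate lyase, which cleaves cytosolic citrate to acetyl-CoA. On GRCm38, the build of all gene positions below, the gene (ENSMUSG00000020917) maps to chromosome 11, bases 100476353 to 100528000, minus strand, with no exon shared with another gene. Acly was at 92.8 TPM in the shETV4 library, against 232 TPM in the shRFP library, 2.50-fold lower. The difference of -1.31 was the lowest of the 9 genes, and only 2.61% of all genes evaluated had a lower one. By level Acly ranked 1615 among all genes evaluated in the shETV4 library, against 631 in the shRFP library.

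Acss2 encodes the cytosolic acetyl-CoA synthetase, which makes the same product from acetate. It maps to chromosome 2, bases 155517948 to 155585724, plus strand (ENSMUSG00000027605), and 9.12% of its exonic sequence overlaps other genes. Acss2 was at 9.84 TPM in the shETV4 library, against 9.8 TPM in the shRFP library, a difference of 0.01. The 2 genes that supply acetyl-CoA thus went apart. Acly was 9.43 times the TPM of Acss2 in the shETV4 library, against 23.7 times in the shRFP library.

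Me1 encodes cytosolic malic enzyme, which yields part of the NADPH that the synthase consumes. It maps to chromosome 9, bases 86581371 to 86695953, minus strand (ENSMUSG00000032418). Its level was 65.2 TPM in the shETV4 library and 89.2 TPM in the shRFP library, a difference of -0.45 that stayed inside 2-fold.

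Acaca encodes acetyl-CoA carboxylase 1, which forms malonyl-CoA in the committed step. It maps to chromosome 11, bases 84129672 to 84401651, plus strand (ENSMUSG00000020532). Acaca was at 37.3 TPM in the shETV4 library and 51.15 TPM in the shRFP library, a difference of -0.45, nearly that of Me1. A processed pseudogene, Gm5182, carries most of the 30.4% of 50-base words that Acaca transcripts share with other genes. Gm5182 was at 3.52 TPM with shETV4 and 4.28 TPM with shRFP, and the division of reads between it and Acaca is not given in the sources. Me1 shared 28.3% of such words, largely with the pseudogene Gm7049 and the non-coding gene Gm48795, which were at 0 and 0 TPM with shETV4 and at 0 and 0.07 TPM with shRFP.

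Fasn encodes fatty acid synthase, the multifunctional enzyme that condenses malonyl-CoA into palmitate. It maps to chromosome 11, bases 120805846 to 120824547, minus strand (ENSMUSG00000025153). Its level was 304 TPM in the shETV4 library, against 328 TPM in the shRFP library, a difference of -0.11 on the deposited scale, of 0.00 when a trimmed mean over genes reaching 1 TPM in each library was set to 0, and of -0.28 after adjustment for GC content. On the deposited scale its TPM was nearly the same in both libraries, unlike that of Acly, whose enzyme acts ahead of it. Fasn was 3.27 times the TPM of Acly with shETV4 and 1.41 times with shRFP. Neither Fasn nor Acly shared any 50-base word with transcripts of another gene.

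Elovl6 encodes the elongase that extends palmitate to stearate. It maps to chromosome 3, bases 129532355 to 129638495, plus strand (ENSMUSG00000041220). Elovl6 was at 11.8 TPM in the shETV4 library, against 26.15 TPM in the shRFP library, 2.21-fold lower, with a difference of -1.08. It was the lowest of the 9 genes by TPM after Acss2 in both libraries, so its ratio rests on smaller values than those of Acly and Scd2.

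Scd1 and Scd2 encode stearoyl-CoA desaturases, which place the double bond that makes oleate and palmitoleate. In the mouse Scd1 is the main form of adult liver, while Scd2 is prominent in brain and in developing tissue. The genes are neighbours on chromosome 19: Scd2 (ENSMUSG00000025203) at 44293674 to 44306864 on the plus strand and Scd1 (ENSMUSG00000037071) at 44394455 to 44407879 on the minus strand, with 87590 bases between them. Scd2 was at 403 TPM in the shETV4 library, against 838 TPM in the shRFP library, 2.08-fold lower, with a difference of -1.05. Scd1 was at 68.9 TPM with shETV4 and 99.2 TPM with shRFP, a difference of -0.52 that stayed inside 2-fold. Scd2 was the major desaturase transcript in both libraries, at 5.85 times the TPM of Scd1 with shETV4 and 8.45 times with shRFP. Of 50-base words, 3.97% in Scd2 and 4.56% in Scd1 occur in other genes, mostly each other and the relatives Scd3 and Scd4. Scd3 was at 0.02 and Scd4 at 0.14 TPM with shETV4, against 0 and 0.25 TPM with shRFP.

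Srebf1 encodes SREBP-1, which is made as a membrane protein and released by proteolysis to activate the enzyme genes. It maps to chromosome 11, bases 60199089 to 60222581, minus strand (ENSMUSG00000020538). Its level was 95.7 TPM in the shETV4 library and 85.45 TPM in the shRFP library, a difference of 0.16 on the deposited scale and of -0.01 after adjustment for GC content. The files give 1 value per gene, so its 1a and 1c transcripts cannot be told apart, and RNA level carries no information on the processed protein.

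**Figure D1:**
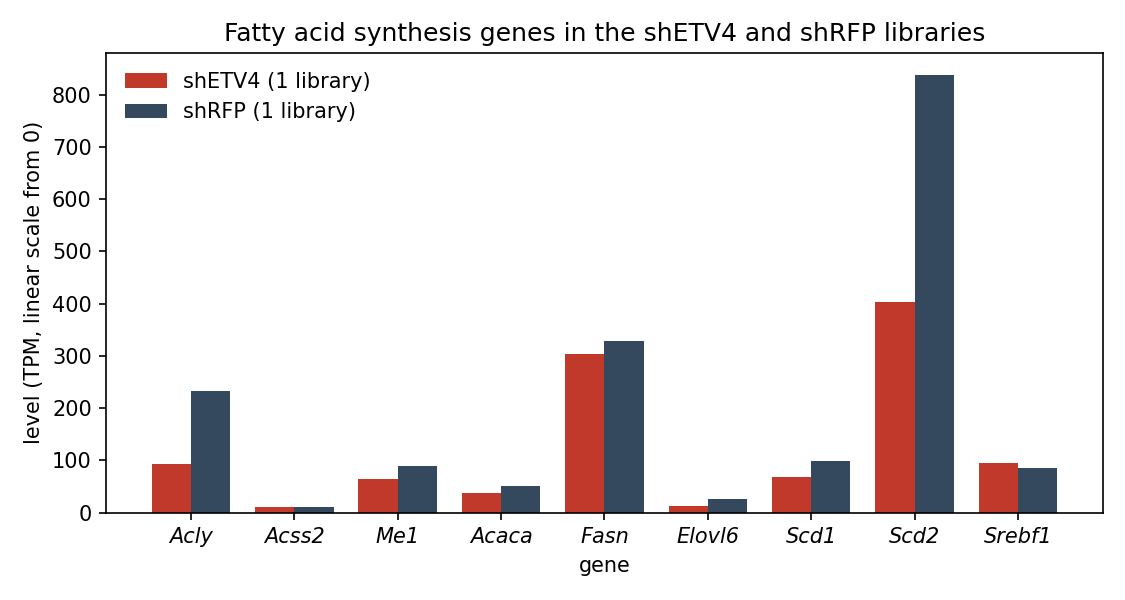
Level in TPM (vertical axis, linear from 0) of the 9 genes in the shETV4 library (left bar of each pair) and the shRFP library (right bar), 1 library each and hence no error bars. Scd2 is the highest of the genes in both libraries at 403 and 838 TPM, Acly stands at 92.8 and 232 TPM, and the bars of Fasn, Acss2 and Srebf1 are nearly equal.

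Scd2 dominated the total. The 8 enzyme genes together held 993 TPM in the shETV4 library and 1673 TPM in the shRFP library, a ratio of 0.59. Of the 680 TPM between these sums, Scd2 accounted for 63.9% and Acly for 20.5%, and each other enzyme for under 5%. Without Scd2 the sums were 590 TPM with shETV4 and 835 TPM with shRFP. Scd2 made up 40.6% of the enzyme total with shETV4 and 50.1% with shRFP, while Fasn made up 30.6% and 19.6% in the same order of libraries.

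The scale of the values and the base composition of the genes moved with these calls. Across 12947 genes the difference followed the GC content of the transcripts, with a rank correlation of 0.52. With the length of the longest transcript of a gene the rank correlation was -0.23. Both are given as descriptions, since genes are not independent replicates and share their library. By that length Me1 was the shortest of the 9 genes, at 3292 bases, and the median of all genes evaluated was 3169 bases. No adjustment for length was made. Genes poor in GC had median differences below 0. Elovl6 and Me1 had a GC content of 47.5% and 46.9% and Scd2 one of 50.4%, while Fasn and Srebf1 were at 58.4% and 59.8%; the median of all genes evaluated was 50.7%. After subtraction of the running median along GC content, Acly stayed past 2-fold at -1.30, Scd2 came just inside at -0.98, and Elovl6 came inside at -0.83. On that footing 1 of the 9 genes was called lower, and none higher, beside 2.31% of all genes called lower and 3.99% called higher, and the median difference was -0.29. Fasn and Me1 changed places: Fasn was at -0.28 and Me1 at -0.13. Scd1 was at -0.63 when its GC content was taken as the median over its transcripts, 56.7%, and at -0.28 when it was taken from its longest transcript, 47.1%; Elovl6 was at -0.63 by the longest transcript. Within its bin of genes of like GC content, Acly had 2 of 259 genes below it, Scd2 had 8 of 259 and Elovl6 had 16 of 259. Scd1 had 20, Fasn 48, Acaca 64, Me1 100, Srebf1 125 and Acss2 130, each of 259. These bins used the median GC content over the transcripts of a gene. Places in bins by the longest transcript were not taken, so that of Scd1 in particular rests on this choice. The part that base composition played in the calls of Elovl6 and Scd2 was not tested.

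**Figure D2:**
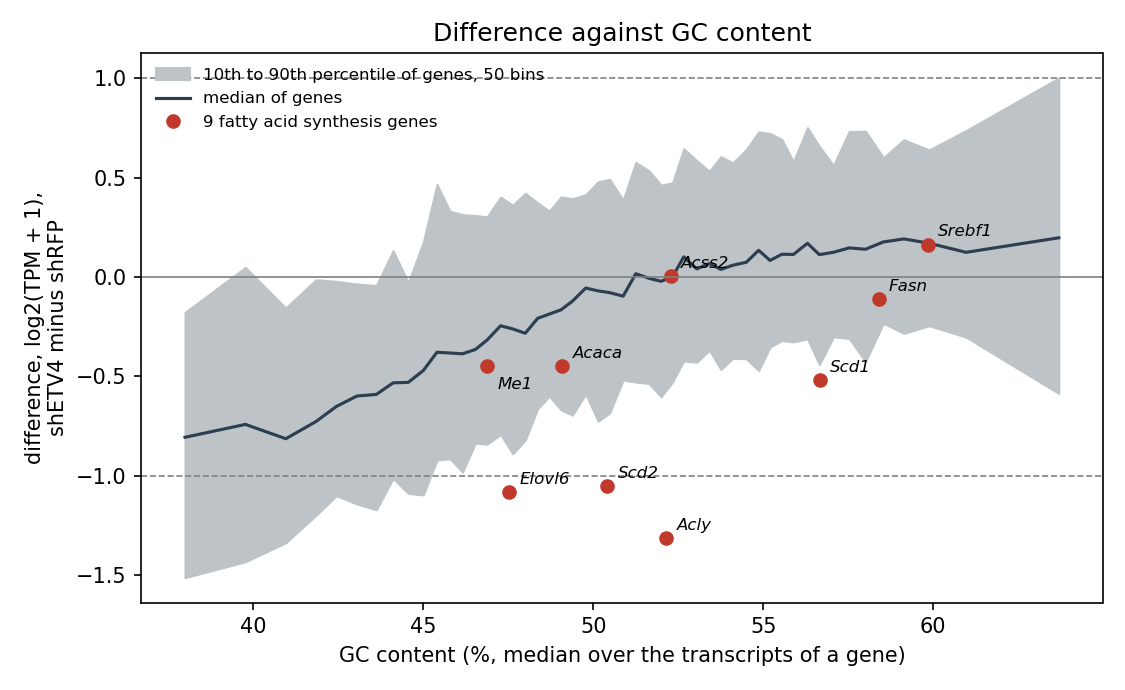
Difference in log2(TPM + 1), shETV4 minus shRFP (vertical axis), against GC content in percent (horizontal axis), with the median (line) and the 10th to 90th percentile (band) of all genes in 50 bins and the 9 genes as points. Acly, Elovl6, Scd2 and Scd1 lie below the band, at -1.31, -1.08, -1.05 and -0.52, while the other 5 lie inside it. GC content is here the median over the transcripts of a gene.

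Scaling moved the calls as well. The trimmed mean of log ratios over genes reaching 5 TPM in each library was -0.08, and with it set to 0 Scd2 was at -0.98, Elovl6 at -1.01 and Acly at -1.24. Over genes reaching 1 TPM in each it was -0.11, which put Acly at -1.20, Elovl6 at -0.98 and Scd2 at -0.94. Acly was thus the 1 gene of the 9 past 2-fold under each scale, pseudocount, filter and GC adjustment tried, although not past a 3-fold threshold, which no member reached.

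**Figure D3:**
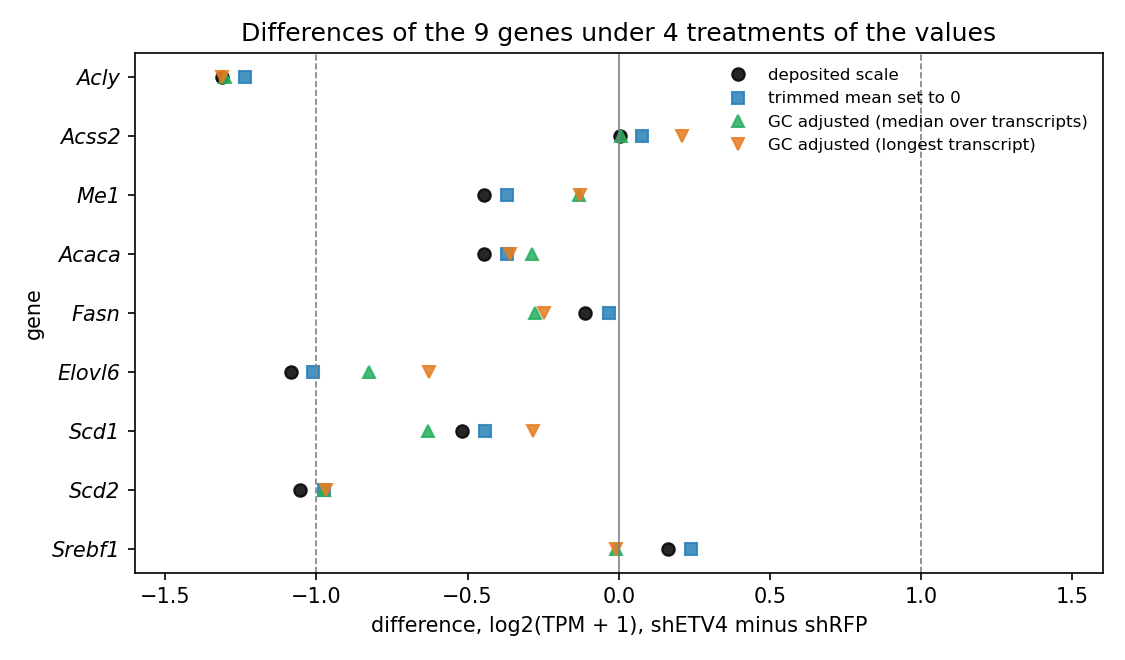
Difference in log2(TPM + 1), shETV4 minus shRFP (horizontal axis), of each of the 9 genes on the deposited scale, with the trimmed mean set to 0, and after the GC adjustment by either measure of GC content; dashed lines mark 2-fold. Acly stays left of the dashed line in all 4, whereas Scd2 and Elovl6 sit on either side of it.

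The genes that feed the pathway showed no call. For this list and those that follow, the shares over all genes evaluated were 7.06% called lower and 3.39% higher. With lists this short, having no called gene is not read as a result about a list. Of 11 further genes of acetyl-CoA and NADPH supply, 9 were evaluated, and their differences all lay between -1 and 1, with a median of -0.22. Idh2, mitochondrial isocitrate dehydrogenase, and Pgd, an NADPH-forming enzyme of the pentose phosphate pathway, had the highest levels. Idh2 was at 330 TPM with shETV4 and 309 TPM with shRFP. Pgd was at 236 TPM with shETV4 and 226 TPM with shRFP. The lowest difference was that of the mitochondrial malic enzyme gene Me3, -0.69 at 1.29 TPM with shETV4 and 2.7 TPM with shRFP, a plain ratio of 2.09-fold lower at a low level. The citrate carrier gene Slc25a1, which delivers the substrate of ATP citrate lyase and is named outside the rule for that reason, was at 95.2 TPM with shETV4 and 111 TPM with shRFP.

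Isozymes and modifiers of the carboxylase and synthase were low or level. Acacb, the carboxylase isozyme that acts at mitochondria, was at 1.76 TPM with shETV4 and 1.38 TPM with shRFP, so Acaca was the main carboxylase transcript in both libraries. Of the 9 genes in the list of other carboxylase and mitochondrial synthesis genes 8 were evaluated, none was called, and the median was 0.18. Mlycd, whose product breaks malonyl-CoA down, had the highest difference at 0.66, with 9.61 TPM in shETV4 against 5.71 TPM in shRFP. Aasdhppt, whose product attaches the prosthetic group of the synthase, had the lowest at -0.65, with 6.77 TPM in shETV4 against 11.16 TPM in shRFP, and was at 0.16 after GC adjustment. Mecr and Mcat, enzymes of mitochondrial fatty acid synthesis, were at 49.8 and 24.5 TPM with shETV4 and at 44.0 and 21.5 TPM with shRFP.

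Elovl6 and Scd2 were the called genes of elongation and desaturation on the deposited scale, and neither was called after GC adjustment by either measure. Of 17 other elongase, desaturase and elongation cycle genes 12 were evaluated, with a median of -0.12 that became 0.01 after GC adjustment. None of the 12 was called, beside 7.06% of all genes evaluated called lower and 3.39% higher, and with so few genes nothing is drawn from that. Tecr and Hsd17b12, which encode reductases of the elongation cycle, were at 517 and 150 TPM with shETV4, against 462 and 163 TPM with shRFP. Hacd2, a dehydratase of the same cycle, had the highest difference at 0.45, with 19.9 TPM in shETV4 against 14.3 TPM in shRFP. Elovl4, an elongase of very long chains, had the lowest at -0.65, with 6.76 TPM in shETV4 against 11.16 TPM in shRFP. It was at -0.60 after GC adjustment by the median over transcripts and at -0.08 by the longest transcript.

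Regulators of lipid synthesis were not called either. Of 21 listed 18 were evaluated, 12 above and 6 below 0, with a median of 0.12. Over all genes evaluated 58.3% lay below 0. The median GC content of the list was 56.3%, against 50.7% over all genes evaluated, and the median difference was 0.11 after GC adjustment. With so few genes nothing is drawn from these counts. Srebf2, the sterol-regulated relative of Srebf1, was at 209 TPM with shETV4 and 179 TPM with shRFP. Scap, the escort of both SREBPs, was at 41.75 TPM with shETV4 and 46.2 TPM with shRFP. Insig1, which holds that escort in the endoplasmic reticulum and is itself an SREBP target, was at 135 TPM with shETV4 and 94.6 TPM with shRFP, a difference of 0.51 and of 0.89 after GC adjustment. Its relative Insig2 was at 20.2 TPM with shETV4 and 26.3 TPM with shRFP. Nr1h2, the liver X receptor beta gene, had the highest difference of the list at 0.67, with 53.5 TPM in shETV4 against 33.15 TPM in shRFP. Nr1h3, the alpha form, was at 1.83 TPM with shETV4 and 1.38 TPM with shRFP. Mlxipl, which encodes the glucose-responsive factor ChREBP, was listed at 0 in both libraries, and Thrsp, a nuclear protein of lipogenic tissue, at 0 TPM with shETV4 and 0.12 TPM with shRFP. Mid1ip1, whose product promotes assembly of the carboxylase into filaments, was at 138 TPM with shETV4 and 125 TPM with shRFP. Prkaa1, a catalytic subunit of the kinase AMPK that inhibits the carboxylase, had the lowest difference at -0.70, with 7.65 TPM in shETV4 against 13.0 TPM in shRFP, and was at 0.06 after GC adjustment.

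Downstream and opposing pathways held no called gene. Of 17 genes for acyl-CoA synthetases and glycerolipid synthesis 16 were evaluated, and their differences all lay between -1 and 1, with a median of -0.06 that became 0.02 with the trimmed mean set to 0. Plin2, a coat protein of lipid droplets, was at 118 TPM with shETV4 and 71.5 TPM with shRFP, a difference of 0.71. Gpat4, an acyltransferase of glycerolipid synthesis, was at 70.5 TPM with shETV4 and 70.1 TPM with shRFP. Acsl4, an acyl-CoA synthetase with a preference for arachidonate, was at 7.62 TPM with shETV4 and 15.9 TPM with shRFP, 2.08-fold lower as a plain ratio but with a difference of -0.97 that was -0.20 after GC adjustment. Of 16 fatty acid oxidation genes 15 were evaluated, with a median of 0.05. Their range ran from -0.81 for Acadm, the medium-chain dehydrogenase, to 0.89 for Cpt1c, a carnitine palmitoyltransferase relative. Hadh and Hadha, of the later steps of oxidation, were at 86.3 and 94.0 TPM with shETV4 and at 110 and 87.0 TPM with shRFP.

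Cholesterol synthesis shares acetyl-CoA and SREBP control with these genes. Of 20 genes evaluated of 21, 2 were called lower, Idi1 and Sc5d, beside 7.06% of all genes evaluated. The median was -0.01, or 0.06 with the trimmed mean set to 0. Idi1, isopentenyl diphosphate isomerase, was at 16.9 TPM with shETV4 and 55.2 TPM with shRFP, a difference of -1.65 that was -0.85 after GC adjustment by the median over transcripts and -1.04 by the longest transcript. Sc5d, a sterol desaturase, was at 21.4 TPM with shETV4 and 48.7 TPM with shRFP, a difference of -1.15 that was -0.77 and -0.56 after the same adjustments. Hmgcs1, which starts the branch, was at 53.6 TPM with shETV4 and 99.8 TPM with shRFP, a difference of -0.88 that was -0.29 and -0.31 after them. Pmvk, phosphomevalonate kinase, had the highest difference at 0.30, and Fdps and Cyp51, the most abundant of the rest, had differences of 0.04 and -0.07. With 1 library per group the difference between the 2 pathways could not be tested.

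**Figure D4:**
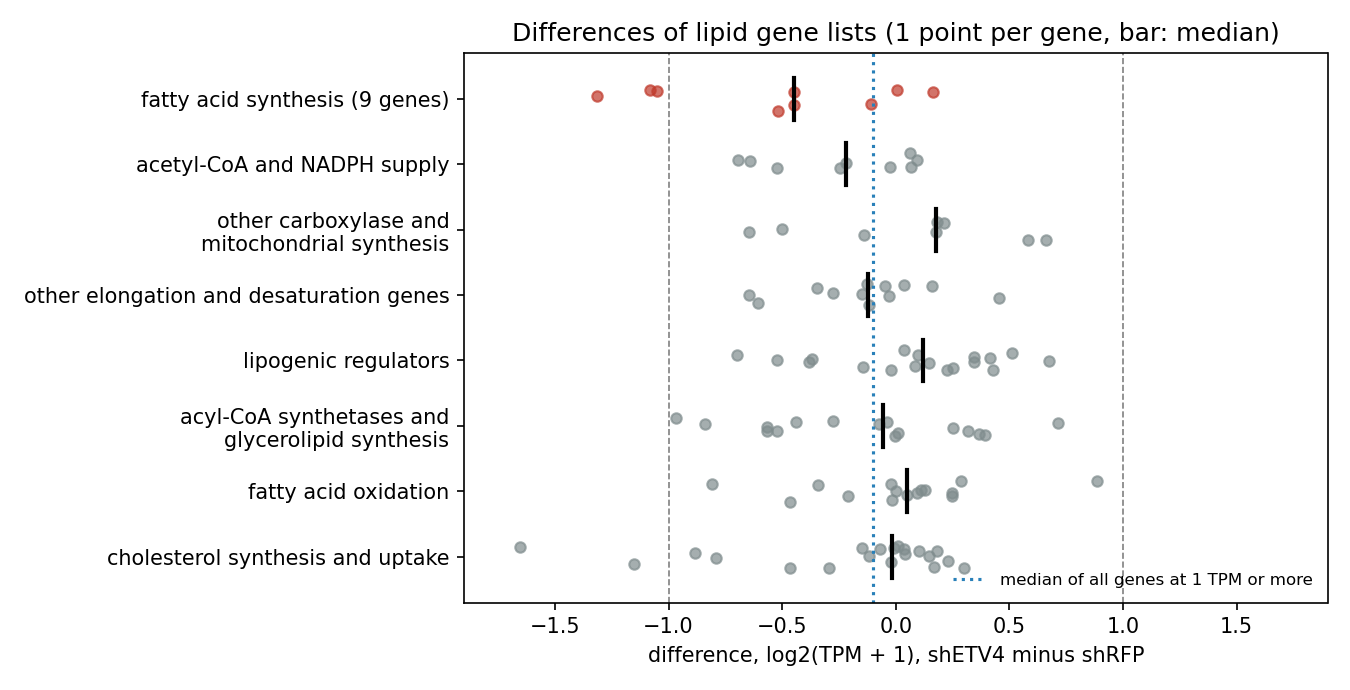
Difference in log2(TPM + 1), shETV4 minus shRFP (horizontal axis), of each evaluated gene of the 9 fatty acid synthesis genes and of 7 further lists, with the median of each list as a bar, 2-fold as dashed lines and the median of all genes evaluated, -0.10, as a dotted line. The 9 genes have their median at -0.45, and the points left of the dashed line at -1 belong to Acly, Elovl6 and Scd2 and to the cholesterol genes Idi1 and Sc5d.

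Etv4, the target of the hairpin, was at 16.2 TPM in the shETV4 library and 73.2 TPM in the shRFP library. The shETV4 library had 12281 named genes that reached 1 TPM and the shRFP library had 12456. None of 8 hepatocyte markers reached 1 TPM: Alb, Cyp2e1, Fabp1 and Tat were listed at 0 in both libraries, so the labelled hepatocellular identity is not borne out by these markers. Of 8 biliary and progenitor markers 5 reached 1 TPM, with sums of 645 TPM with shETV4 and 661 TPM with shRFP. Spp1 made up most of both sums, at 476 TPM with shETV4 and 423 TPM with shRFP. Epcam, Krt7 and Krt8 stayed below 1 TPM in both libraries. Cd24a was called lower, at 55.5 TPM with shETV4 against 132 TPM with shRFP, a difference of -1.23. The call stayed after GC adjustment by the median over transcripts (-1.16) and ended with adjustment by the longest transcript (-0.65). Of 8 fibroblast and stellate markers 6 reached 1 TPM, with sums of 880 TPM with shETV4 and 653 TPM with shRFP. Col3a1 and Col1a1 made up most of both sums. Col1a2 was at 1.55 TPM with shETV4 and 1.24 TPM with shRFP, and Lrat and Des stayed below 1 TPM. Dcn was at 9.76 TPM with shETV4 and 6.81 TPM with shRFP, a difference of 0.46. After GC adjustment Dcn passed 2-fold, at 1.11 by the median over transcripts and at 1.22 by the longest transcript. The other evaluated genes of this list stayed inside 2-fold by either measure. Adipocytes express the synthesis genes strongly. Of their 8 markers 5, Adipoq, Plin1, Cidec, Adig and Cfd, were at 0 in both libraries, and 2, Fabp4 and Pparg, reached 1 TPM. Fabp4 was at 1.76 TPM with shETV4 and 1.73 TPM with shRFP. Pparg was at 4.29 TPM with shETV4 and 2.35 TPM with shRFP, a difference of 0.66. After GC adjustment Pparg was at 1.07 by the median over transcripts and at 0.70 by the longest transcript. The list summed to 6.07 TPM with shETV4 and 4.08 TPM with shRFP. Of 8 immune markers 1, Cd68, reached 1 TPM, with list sums of 2.43 TPM with shETV4 and 1.86 TPM with shRFP, and none of 6 endothelial markers did, with 1.71 and 1.42 TPM. The part of the biliary and fibroblast markers in the differences above was not tested. In bulk RNA, fewer cells with a high level and less RNA in every cell cannot be told apart.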

How the data were processed

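Libraries were prepared from total RNA with Illumina's TruSeq kit, per the labels' protocols. The authors deposited TPM to 2 decimals, a unit inferred here from the totals of 999870.3 in shETV4 and 999999.77 in shRFP. The submitters' processing notes name HISAT2, RSEM and GRCm38.p4 but give neither role nor version; the sources used here state no annotation release, strand or filter. The value columns' names end in _2, whose meaning is not given there either. The 153 records without a gene symbol were left out. Per gene the difference of log2(TPM + 1) was taken and called at 2-fold where either library reached 1 TPM, with no test. GENCODE M21 on GRCm38 gave positions, transcript length, GC content and sharing of exons and 50-base words; RefSeq gave promoters. The GC adjustment subtracts the running median over 50 bins of genes. The trimmed mean drops 30% of the ratios and 5% of the mean levels from either tail. Alternatives varied the pseudocount (0.1, 5), filter (none, 5 TPM), scale, threshold (1.5-fold, 3-fold), GC adjustment and handling of repeated symbols. The calculation was tested on simulated data with an assumed noise. No planted fold had the size of those of the called members, so it gives no measure of how certain their calls are. The members, lists and rules were chosen with earlier results of these data known. Beside the members, Etv4 and the listed regulators and isozymes, genes were named where past 2-fold, highest or lowest in difference, or among the 2 highest by TPM in their list; the pseudogenes and paralogs that share sequence, Slc25a1 and the cell type markers were named outside that rule. Hsd17b8 was matched by synonym. Python 3.11.15, numpy 2.4.6, pandas 2.3.3 and matplotlib 3.10.9 were used.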

Additional observations from a re-analysis of the deposited data

How the results depend on the processing

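Of the 9 genes 3 were called lower and 0 higher, with a median difference of -0.45, under pseudocount 0.1 (-0.46), without the filter, with a filter of 5 TPM and with repeated symbols summed; 2 were called lower with pseudocount 5 (2.06% of all genes), where Elovl6 came inside 2-fold, and with the median ratio or the trimmed mean over genes reaching 5 TPM in each library set to 0 (6.07% and 5.9% of all genes), where Scd2 did. With the GC adjustment the count was 1, beside 2.31% of all genes, and the median -0.29; with the GC content of the longest transcript, an alternative chosen after seeing the data, the count was 1, beside 2.34%, and the median -0.28. With the trimmed mean taken over genes reaching 1 TPM in each library, also chosen after seeing the data, the count was 1, beside 5.31% of all genes, and the median -0.34. At 3-fold the count was 0, beside 1.25% of all genes called lower, and at 1.5-fold it was 3, beside 20.0%. No member was called higher under any setting. Genes called lower over all genes were 916 on the deposited scale, 299 with the GC adjustment and 267 with pseudocount 5; genes called higher were 439, 516 and 167. None of the called genes on the lists changed sign under these settings. Sc5d came inside 2-fold with the GC adjustment by either measure and Idi1 with the median over transcripts but not the longest transcript (-1.04), while Me3, Hacd4 and Acsl4 passed it with pseudocount 0.1. No paired analysis was possible because there is 1 library per group and the labels carry no replicate numbers. TPM keep no depth, so precision at low levels cannot be given.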
